A study of Bos taurus with 13 samples.

Results

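Plasma cell and antibody secretion genes were followed in the blood of dairy cows with high or low cortisol in milk. The genes were listed by name as *MZB1*, *JCHAIN*, *TXNDC5*, *TNFRSF17*, *XBP1*, *DERL3* and *PRDM1*, a list drawn up with earlier results of these data known, and the rule itself uses no measured value. Of the 7 genes, 5 had an entry among the 16095 gene names of the counts. *TXNDC5*, a protein disulfide isomerase of the endoplasmic reticulum (ER), and *TNFRSF17*, the BCMA receptor of plasma cells, had none and are not analysed here. An entry named *BLOC1S5-TXNDC5* was not taken for *TXNDC5*.

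The study drew blood from the tail vein of healthy lactating cows of a single commercial herd and compared the cows at both ends of the herd's distribution of milk cortisol. Counts of 13 cows were used here, 7 of the high cortisol group (replicates 1 to 7) and 6 of the low cortisol group (replicates 8 to 13), and a cow is named by its group and replicate number (high cow 7, low cow 12). The labels speak of 10 cows per group, and the remaining cows were not analysed here. All are Italian Red Pied (Italian Simmental) cows, none was treated, their ages are not given, and each replicate is 1 cow. The groups differ by natural variation in milk cortisol, so whatever else differs between these cows cannot be told apart from cortisol. Whole blood was taken into PAXgene tubes, where RNA is stabilised at once, and globin transcripts were not depleted. Each library held 11045599 to 28124575 counts on named genes. A gene at 0 counts could still have up to 3, which is 0.107 to 0.272 CPM, a level relative to library size.

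Plasma cells arise from activated B cells and secrete antibody in large amounts, and their young dividing forms, plasmablasts, travel in blood. *PRDM1* encodes Blimp-1, a repressor that shuts down the B cell program. *XBP1* encodes a transcription factor of the unfolded protein response (UPR), which enlarges the ER and its folding machinery. *MZB1* is an ER co-chaperone of antibody assembly, *JCHAIN* encodes the joining chain of polymeric IgM and IgA, and *DERL3* belongs to the derlins, which take part in the removal of misfolded proteins from the ER. *XBP1* and *PRDM1* are also expressed outside the B cell lineage. In whole blood, fewer cells of a type and less RNA per cell cannot be told apart.

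All 5 genes were measured well above the limit of detection. The 13 cows had 1819 to 13861 counts of *JCHAIN*, 3066 to 8501 of *XBP1*, 631 to 3970 of *MZB1*, 615 to 2741 of *DERL3* and 524 to 1245 of *PRDM1*, and all 5 genes passed the filter on low counts with 11033 named genes in total. On the UMD3.1 build, all lie on the minus strand. *JCHAIN* lies on chromosome 6 from 87759438 to 87768834 and *MZB1* on chromosome 7 from 52285863 to 52287943. *PRDM1* lies on chromosome 9 from 44355220 to 44377512. *XBP1* and *DERL3* share chromosome 17, from 70344599 to 70349566 and from 73241610 to 73243689. No other named gene overlapped any of these spans, and reads were counted over exons.

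Per kilobase of exon, *JCHAIN* had the highest mean level, 275 CPM per kb ± 180 (SD, n = 13), which lay at percentile 97.1 of all genes tested. *XBP1* followed with 163 ± 24.7 CPM per kb, *MZB1* with 128 ± 79.2 and *DERL3* with 91.1 ± 36.3, at percentiles between 89.8 and 94.7. The ranges of these 4 genes over the cows overlapped, and whether neighbours in this order differ within cows was not tested. *JCHAIN* was the highest of the genes in 9 cows and *XBP1* in the other 4. *PRDM1* was the lowest in all 13 cows, with 9.14 ± 1.51 CPM per kb, below the median of 12.7 CPM per kb over all genes tested.

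The spread between cows split the genes in a different way. *JCHAIN* differed 8.55-fold between the highest and the lowest cow, *MZB1* 6.21-fold and *DERL3* 3.53-fold, whereas *PRDM1* differed 2.05-fold and *XBP1* 1.69-fold. The SD of log2 CPM over the 13 cows was 1.06 for *JCHAIN* (percentile 98.5 of all genes tested), 0.79 for *MZB1* (percentile 95.2) and 0.55 for *DERL3* (percentile 83.1). For *PRDM1* it was 0.24 (percentile 33.5) and for *XBP1* 0.22 (percentile 25.5), both below the median of 0.305 over all genes tested. Both transcription factors were thus steadier between cows than the typical gene, and *JCHAIN*, *MZB1* and *DERL3* were more variable than it. The genes tested were not matched for level in this comparison.

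**Figure D1:**
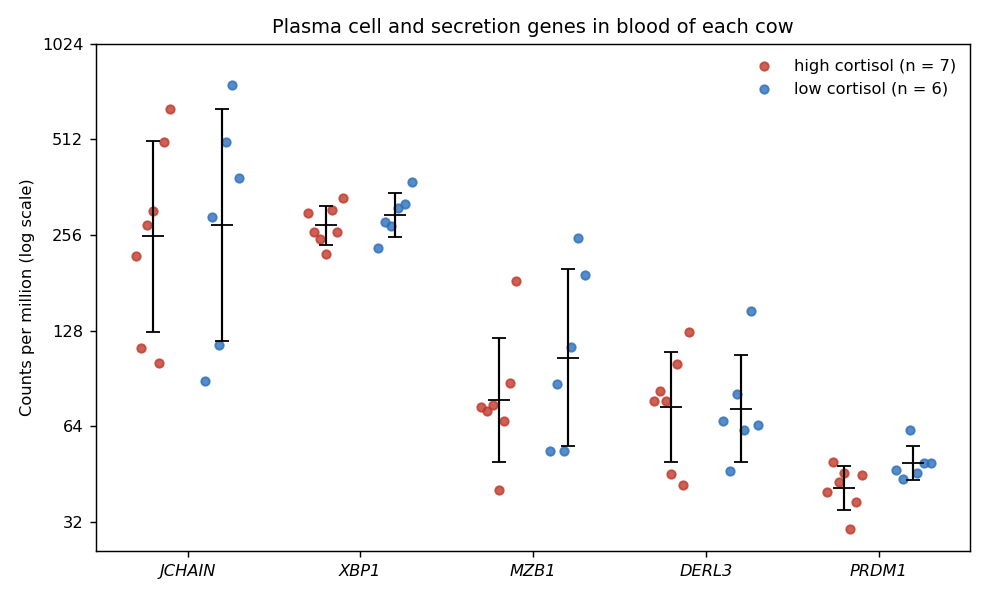
Levels of the 5 measured genes in CPM (log axis), with 1 point per cow, high cortisol cows in red (n = 7) and low cortisol cows in blue (n = 6). The horizontal bars are means and the error bars SDs, both computed on the log2 scale. The groups overlap for every gene, *JCHAIN* spreads over 88.7 to 759 CPM, and *PRDM1* lies between 30.4 and 62.3 CPM.

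No gene of the set differed between the groups after adjustment over all genes tested. *MZB1* and *PRDM1* had the largest differences in log2 fold change, both towards lower levels in the high group, and *DERL3* had the smallest. By edgeR's quasi-likelihood test the adjusted p was 0.998 for each of the 5 genes, and 0 of 11033 genes were called at an adjusted p of 0.05 (0.0%). At an unadjusted p below 0.05, 1 of the 5 genes (*PRDM1*) was counted, beside 231 of all genes tested (2.09%). That gene was lower in the high group, as were 128 of these 231 genes (1.16% of all genes tested). The groups did not overlap for 0 of the 5 genes, beside 3 of all genes tested (0.0272%). The median log2 fold change of the 5 genes was -0.22, beside 0.01 over all genes tested.

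*PRDM1* had 30.4 CPM in the lowest, 42.6 in the median and 49.2 in the highest cow of the high group. In the low group the lowest cow had 43.7 CPM, the median was 47.7 and the highest cow had 62.3. Thus 6 of 7 high cows were under the low group's median and 4 were under its lowest cow, but high cow 2 exceeded all low cows except replicate 10. The means were 41.3 CPM ± 6.26 (SD, n = 7) for high and 49.3 CPM ± 6.66 (SD, n = 6) for low cows. The log2 fold change, -0.26, had a standard error of 0.12 (95% interval -0.51 to -0.00078), with an unadjusted p of 0.0494 from edgeR's test. The exact two-sided permutation p of its log2 CPM, over all 1716 ways to split the cows, was 0.0385.

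The *PRDM1* value changed with single cows and with the haemoglobin covariate. With 1 cow left out, the unadjusted p of edgeR's test lay between 0.0288 and 0.162, above 0.05 in 8 of 13 cases, and it was highest without low cow 10 (log2 fold change -0.17). Haemoglobin genes held 0.0282% to 0.815% of the counts in the high group and 0.0114% to 0.0552% in the low group. The correlation of *PRDM1* with the log2 haemoglobin share over the 13 cows was r = -0.52 (permutation p = 0.0699, adjusted over 10 relations 0.699; rho = -0.68, permutation p = 0.0138, adjusted 0.138), and without the cows with the most extreme haemoglobin share r was -0.53. With that share as a covariate, the log2 fold change was -0.18 (unadjusted p = 0.274, edgeR).

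*MZB1* had 40.3 CPM in the lowest, 73.5 in the median and 183 in the highest cow of the high group, beside 53.3, 100.4 and 250 CPM in the low group. The 3 cows above 180 CPM were low cows 12 and 13 and high cow 7, and 6 of 7 high cows were under the low group's median. The means were 85.2 CPM ± 45.4 (SD, n = 7) and 125 CPM ± 79.9 (SD, n = 6), and the log2 fold change was -0.55 (standard error 0.38, 95% interval -1.37 to 0.27). The unadjusted p was 0.174 in edgeR's test and the exact permutation p was 0.341. Without high cow 7 the log2 fold change was -0.85 (unadjusted p = 0.0243 from edgeR's test over all genes). Without low cow 12 it was -0.23 (unadjusted p = 0.532 from the same edgeR test). Each of these cows alone therefore moved the value by more than 1.5 times. With the haemoglobin covariate it was -0.94 (unadjusted p = 0.0814, edgeR).

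*JCHAIN* had 101 CPM in the lowest, 274 in the median and 639 in the highest cow of the high group. The low group had 88.7, 339 and 759 CPM, so both groups covered almost the same range. The means were 308 CPM ± 199 (SD, n = 7) and 358 CPM ± 252 (SD, n = 6), with a difference of -0.22 in log2 fold change (standard error 0.51, unadjusted p = 0.677, edgeR) and an exact permutation p of 0.836. The 95% interval, -1.30 to 0.87, includes a fall to less than 0.5 of the level (0.407) and a rise by 1.82-fold. Differences of up to this size were thus not excluded with these cows. The value was -0.89 with the haemoglobin covariate (unadjusted p = 0.187, edgeR), and it turned to 0.15 without low cow 12.

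*DERL3* had 41.8 CPM in the lowest, 76.9 in the median and 126 in the highest high cow, beside 46.2, 65.5 and 147 CPM in the low group. Its means were almost the same, 78.6 CPM ± 29.6 (SD, n = 7) and 78.0 CPM ± 35.8 (SD, n = 6), and its log2 fold change was 0.01 (standard error 0.27, 95% interval -0.56 to 0.59, unadjusted p = 0.958, edgeR; exact permutation p = 0.953). The sign of this small value depended on which cows were kept and turned to -0.25 with the haemoglobin covariate. *XBP1* had 223, 262 and 336 CPM in the lowest, median and highest cow of the high group and 234, 296 and 377 CPM in the low group. Its means were 277 CPM ± 38.9 (SD, n = 7) and 299 CPM ± 48.8 (SD, n = 6). The log2 fold change, -0.11 (standard error 0.12, unadjusted p = 0.372, edgeR; exact permutation p = 0.391), had a 95% interval of -0.37 to 0.15, the bounds of which correspond to 0.775-fold and 1.11-fold.

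**Figure D2:**
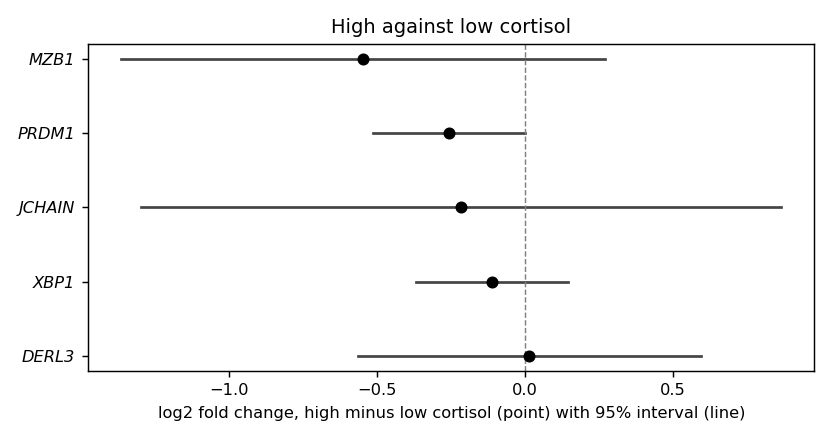
Log2 fold changes of the 5 genes, high minus low cortisol (points), with 95% intervals from edgeR's quasi-likelihood test (lines) and a dashed line at no difference. The intervals of *MZB1*, *JCHAIN*, *XBP1* and *DERL3* include 0, that of *PRDM1* ends just below it, and that of *JCHAIN* is the widest.

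Across cows, *MZB1* varied together with *XBP1* and with *JCHAIN*. *DERL3* went less clearly with *MZB1* and *XBP1* and not with *JCHAIN* (r = 0.06), and *PRDM1* went with none. The highest cow of *MZB1*, *JCHAIN* and *DERL3* was low cow 12. Replicate 13 of the low group was the highest for *XBP1* and the second for *MZB1*, and high cow 7 was the second for *JCHAIN*, *DERL3* and *XBP1* and the third for *MZB1*. Cows of both groups thus stood at the upper end. At the lower end the genes went together in part. Counted from the highest of the 13 cows, low cow 8 ranked 13 for *JCHAIN*, 12 for *XBP1*, 11 for *MZB1* and 8 for *DERL3*. High cow 4 was the lowest cow for *MZB1* and *XBP1* and ranked 12 for *DERL3*, but it had 305 CPM of *JCHAIN*. High cow 6 was the lowest for *DERL3* but ranked 4 for *JCHAIN*.

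The log2 CPM of *MZB1* and *XBP1* correlated with r = 0.82 over the 13 cows (permutation p = 0.00056, adjusted over 10 pairs 0.0056; rho = 0.76, permutation p = 0.00344, adjusted 0.0172). Without low cows 12 and 13, the cows with the most extreme *MZB1* levels, r was 0.78 (permutation p = 0.00368), and it was 0.76 within the high group and 0.84 within the low group. *XBP1* ranked 43 of 11032 genes by its correlation with *MZB1*. *MZB1* and *JCHAIN* correlated with r = 0.73 (permutation p = 0.00457, adjusted 0.0228; rho = 0.78, permutation p = 0.00227, adjusted 0.0172), and without the same 2 cows r was 0.67 (permutation p = 0.0215). Within the groups r was 0.52 in the high and 0.91 in the low cows, and *JCHAIN* ranked 147 of 11032 genes for *MZB1*. The relation of *MZB1* and *JCHAIN* was more dependent on single cows, and it missed the threshold without high cow 7 or low cow 8, 10 or 12, with the lowest r of 0.66 (adjusted permutation p = 0.105) without low cow 12.

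The other pairs did not pass the adjusted threshold in these 13 cows. *MZB1* and *DERL3* had r = 0.50 (permutation p = 0.0794, adjusted 0.265; rho = 0.14, adjusted 0.993), *XBP1* and *DERL3* r = 0.47 (permutation p = 0.107, adjusted 0.267; rho = 0.40, adjusted 0.437), and *JCHAIN* and *XBP1* r = 0.44 (permutation p = 0.133, adjusted 0.267; rho = 0.54, adjusted 0.204). *JCHAIN* and *DERL3* had r = 0.06 (rho = -0.07), with an adjusted permutation p of 0.983. The 4 pairs with *PRDM1* had r between -0.04 and 0.09 and rho between -0.01 and 0.20, each with an adjusted permutation p of at least 0.983.

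**Figure D3:**
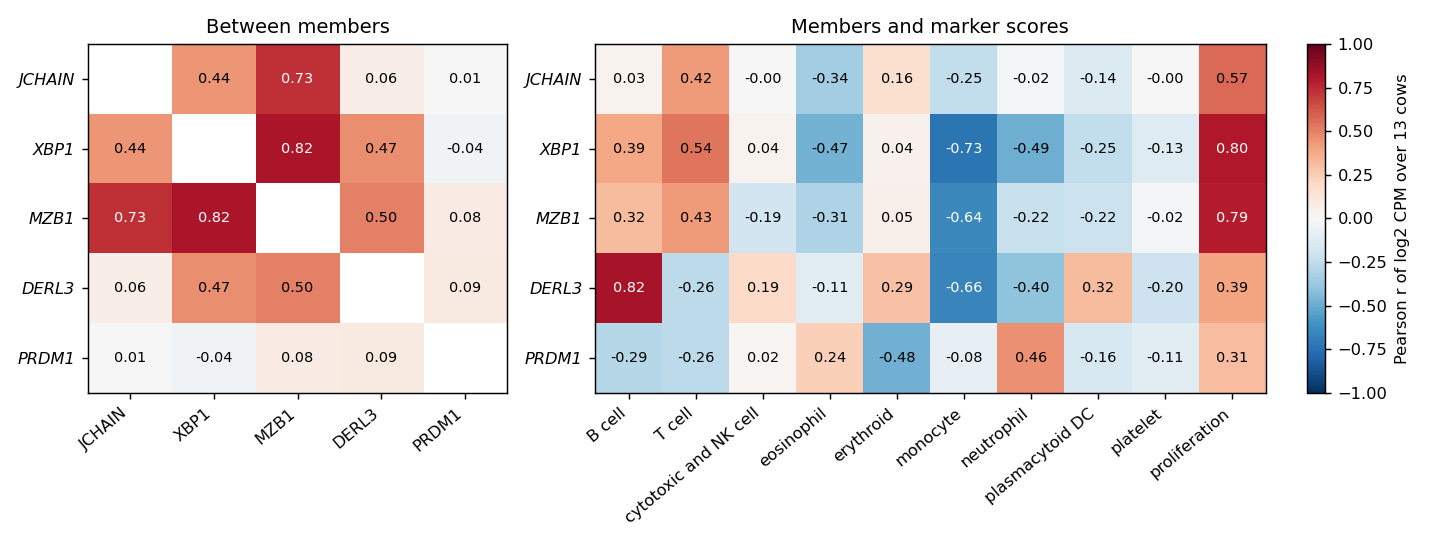
Pearson r of log2 CPM over the 13 cows, between the 5 genes (left) and between each gene and the scores of 10 cell type marker lists (right), with red for positive and blue for negative values. *MZB1* is tied to *XBP1* (0.82) and *JCHAIN* (0.73), *DERL3* to the B cell score (0.82), and the *PRDM1* row holds no value above 0.46.

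The ratio of *JCHAIN* to *MZB1* CPM, a measure chosen after the counts were seen, ran from 1.52 in replicate 5 to 7.57 in replicate 4, both of the high group. Its median was 3.49 in the high and 2.60 in the low cows, and no difference between the groups was detected (exact two-sided permutation test of the log2 ratio, p = 0.446).

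The genes whose levels followed each member most closely were named by a fixed rule, as the 3 non-member genes with the highest r over the 13 cows, and they are given as a description since they were chosen for that value. For *MZB1* these were *TXNDC11*, an ER thioredoxin-like protein (r = 0.95), *MANF*, a small ER protein induced by ER stress (r = 0.92), and *PA2G4*, a regulator of cell growth (r = 0.89). For *XBP1* they were *SLC35B1*, an ATP carrier of the ER membrane (r = 0.95), *SSR3*, a subunit of the translocon-associated complex (r = 0.95), and again *PA2G4* (r = 0.93). For *JCHAIN* they were *NSMCE1*, a subunit of the SMC5/6 complex (r = 0.95), *RFC3*, a subunit of the clamp loader of DNA replication (r = 0.92), and *HSP90B1*, the ER chaperone GRP94 (r = 0.91). ER genes thus stood among the closest genes of *MZB1*, *XBP1* and *JCHAIN*.

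*DERL3* had other companions. Its closest genes were *SEMA4B*, a semaphorin (r = 0.91), *PALM*, which encodes paralemmin (r = 0.90), and *EPS8L2*, a regulator of actin (r = 0.90), none of them an ER protein. For *PRDM1* the closest genes were *BCL7A*, a subunit of a chromatin remodelling complex (r = 0.84), *KCNK1*, a potassium channel (r = 0.81), and *ELL2*, an elongation factor that favours the secreted form of antibody heavy chains (r = 0.78). *BCL7A* had 4 to 28 counts per cow, and without the 2 cows most extreme in *PRDM1* r fell to 0.59 for *KCNK1* and 0.44 for *ELL2*, so these values rest on few reads or few cows. Genes with r above 0.7 numbered 478 of 11032 for *XBP1*, 244 for *DERL3*, 242 for *JCHAIN* and 228 for *MZB1*, but 16 for *PRDM1*.

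Antibody genes themselves could hardly be followed, since among the names starting with IGH, IGK or IGL only *IGHE*, the heavy chain of IgE, is an immunoglobulin gene. It had 33.2 to 110 CPM, with a log2 fold change of -0.31 (unadjusted p = 0.291, adjusted p = 0.998, edgeR). Its r was -0.43 with *JCHAIN*, -0.19 with *MZB1*, -0.15 with *DERL3*, -0.11 with *XBP1* and 0.48 with *PRDM1*. Immunoglobulin constant regions are similar in sequence, so the counting of reads on *IGHE* is uncertain. The other 2 names, *IGHMBP2* and *IGLON5*, belong to a helicase and a neural adhesion protein.

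Genes of the same pathways were taken from 7 lists, and 88 of their genes were tested. In edgeR's test 0 of the 88 reached an unadjusted p below 0.05, beside 2.09% of all genes tested, and the adjusted p was 0.998 or above for each. Of the plasma cell companions, 12 were tested, 2 with a positive and 10 with a negative log2 fold change, and the median was -0.09, beside 0.01 over all genes. *ITM2C*, a membrane protein abundant in plasma cells, had 1773 CPM ± 413 (SD, n = 7) in high and 1921 CPM ± 361 (SD, n = 6) in low cows, and *FKBP11*, an ER prolyl isomerase, had 263 CPM ± 65.9 (SD, n = 7) and 298 CPM ± 11.4 (SD, n = 6). *CD38*, an ectoenzyme high on plasma cells, had a log2 fold change of 0.52 (unadjusted p = 0.126, edgeR) and *ELL2* one of -0.34 (unadjusted p = 0.0513, edgeR). *SDC1*, which encodes the plasma cell surface marker CD138, had 0 to 15 counts, with 0 in 4 cows, and was too low to test. Of the BAFF and APRIL system, which keeps plasma cells alive, *TNFSF13* (APRIL) had a log2 fold change of -0.08 and its receptor *TNFRSF13B* (TACI) one of -0.24 (unadjusted p = 0.628 and 0.354, edgeR). *TNFSF13B* (BAFF) and *TNFRSF13C* of this system had no entry in the counts.

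The ER lists were likewise close to no difference between the groups. Among 13 UPR sensors and factors, 7 log2 fold changes were positive and 6 negative (median 0.00). *ATF4*, a stress-induced transcription factor, had -0.13, *ATF6B*, an ER-bound factor, 0.00, and *NFYB*, a subunit of the CCAAT-binding factor, 0.61, with unadjusted p between 0.0782 and 0.969 (edgeR). Among 19 ER chaperones and disulfide formation genes, 6 were positive and 13 negative (median -0.10). *HSPA5* and *DNAJB11* of this list had no entry in the counts. *CALR* (calreticulin) had -0.13, *PPIB* (cyclophilin B) -0.01, *CRELD2*, an ER stress-induced chaperone, -0.26 and *ERO1A*, an ER oxidase, 0.42, with unadjusted p between 0.154 and 0.936 (edgeR). Among 20 genes of ER entry and signal peptide cleavage, 8 were positive and 12 negative (median -0.01). The translocon-associated subunits *SSR4* and *SSR2* had -0.01 and -0.02, and the signal recognition particle subunits *SRP9* and *SRP68* had 0.29 and -0.16 (unadjusted p between 0.145 and 0.966, edgeR).

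Among 15 genes of ER-associated degradation, 8 were positive and 7 negative (median 0.01). *OS9*, an ER lectin, had -0.13, *HERPUD1*, a scaffold of the degradation complex, -0.05, *SEL1L*, the partner of the ligase HRD1, 0.41 and *VCP*, the ATPase that pulls proteins out of the ER, -0.13, with unadjusted p between 0.0626 and 0.648 (edgeR). Of the B cell program that is repressed in plasma cells, 7 genes were tested, 6 positive and 1 negative (median 0.11). *CIITA*, the master regulator of MHC class II, had 0.03, *ID3*, an inhibitor of E proteins, 0.11, *EBF1*, an early B cell factor, 0.64 and *BCL6*, the germinal centre repressor, -0.20, with unadjusted p between 0.0626 and 0.823 (edgeR).

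Across cows, the ER chaperone and ER entry lists held many genes that varied with *MZB1*, *JCHAIN* and *XBP1*. For the 19 ER chaperones, 9 genes each had r above 0.5 with *MZB1*, with *JCHAIN* and with *XBP1*, 4 with *DERL3* and 1 with *PRDM1*, and the medians of r were 0.43, 0.50, 0.50, 0.17 and 0.08. For the 20 genes of ER entry the counts were 10, 11, 9, 3 and 0 in the same order. Over all genes tested, r above 0.5 was found for 9.66% of genes with *MZB1*, 10.3% with *JCHAIN*, 15.3% with *XBP1*, 12.9% with *DERL3* and 1.604% with *PRDM1*. *PPIB* had r = 0.88 and *SSR2* r = 0.89 with *XBP1*, and *CRELD2* had 0.79 with *XBP1* and 0.72 with *MZB1*, but *ERO1A* of the chaperone list had -0.57 with *XBP1*. The 13 UPR genes had medians of r between -0.26 and 0.10 with the 5 genes. Of them, 0 had r above 0.5 with *MZB1*, *JCHAIN* or *PRDM1* and 1 with *DERL3*. With *XBP1* there were 2, *ATF4* (0.54) and *TRIB3* (0.52). The kinases *EIF2AK3* (PERK) and *ERN1* (IRE1), which sense misfolded proteins, had r = -0.74 and -0.65 with *XBP1*. The 15 degradation genes had medians between -0.21 and 0.02. Of these genes, 0 had r above 0.5 with *MZB1* or *PRDM1*, and 2 each with *JCHAIN*, *XBP1* and *DERL3*. *HERPUD2* and *EDEM1*, a mannosidase-like protein, had -0.78 and -0.77 with *XBP1* and -0.65 and -0.74 with *MZB1*. In the other direction, *SYVN1* had 0.80 with *DERL3*, *SELENOS* 0.78 with *JCHAIN* and *UBE2G2* 0.63 with *XBP1*. Of the 7 genes of the B cell program, 0 had r above 0.5 with *MZB1*, *JCHAIN* or *XBP1*, and the medians were -0.25, -0.18 and -0.41. *ERO1A*, *EIF2AK3*, *ERN1*, *TRIB3*, *HERPUD2*, *EDEM1*, *SYVN1*, *SELENOS* and *UBE2G2* are named after their values were seen. These correlations are a description, and genes of 1 library share its depth and its cell composition.

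**Figure D4:**
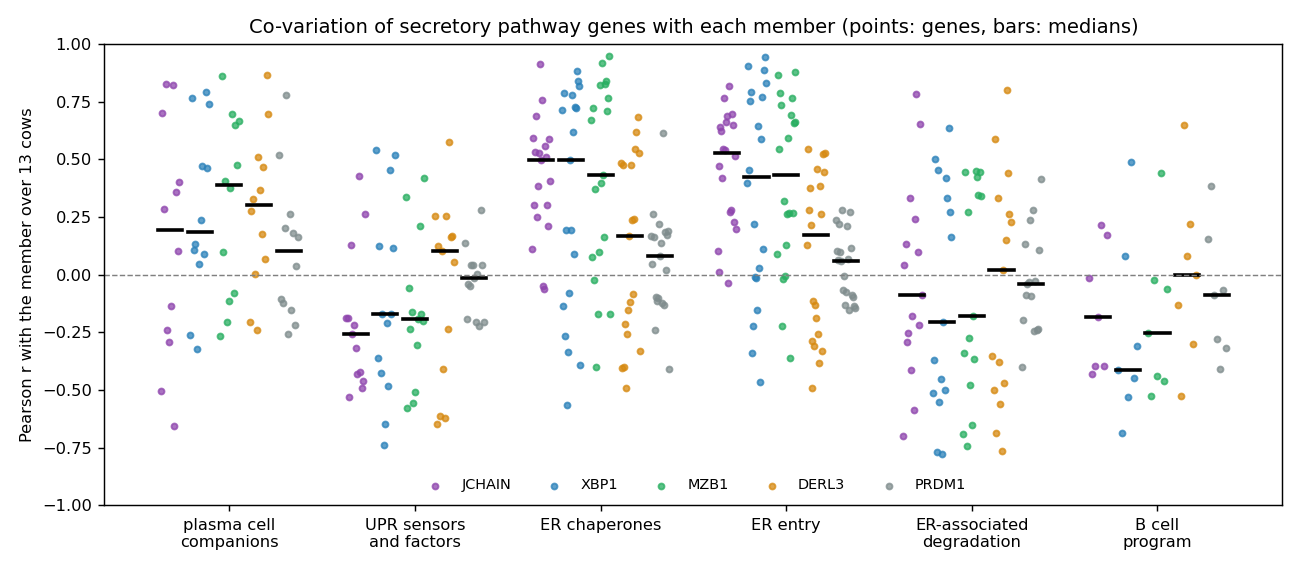
Pearson r over the 13 cows of each pathway gene (points) with each of the 5 measured genes, by list, with medians as bars. The BAFF and APRIL system, with 2 tested genes, is left out. For ER chaperones and ER entry the medians of *JCHAIN*, *XBP1* and *MZB1* lie between 0.42 and 0.53, and those of *PRDM1* are 0.08 and 0.06. The medians of the UPR and degradation lists lie between -0.26 and 0.10, with single genes from -0.78 to 0.80.

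Of the 12 plasma cell companions, 4 had r above 0.5 with *MZB1*, 3 each with *JCHAIN*, *XBP1* and *DERL3*, and 2 with *PRDM1*. In this order, the shares over all genes tested were 9.66%, 10.3%, 15.3%, 12.9% and 1.604%. The medians of r over the companions were 0.39, 0.19, 0.19, 0.30 and 0.10, and 8, 7, 10, 10 and 7 companions had r above 0. The values below are named after they were seen. *CD27*, a receptor of memory B cells, plasma cells and T cells, had r = 0.86 with *MZB1*, 0.77 with *XBP1* and 0.70 with *JCHAIN*. *IRF4*, a transcription factor required for plasma cells, had r = 0.82 with *JCHAIN* and 0.70 with *MZB1*, and *EAF2*, an elongation factor partner, 0.83 with *JCHAIN*. *SLAMF7*, a surface receptor of plasma cells and NK cells, had r = 0.74 with *XBP1*, 0.70 with *DERL3* and 0.67 with *MZB1*. *POU2AF1*, the B cell coactivator OBF-1, had r = 0.86 with *DERL3*, and *PIM2*, a survival kinase, 0.79 with *XBP1* and 0.65 with *MZB1*. Other companions went the other way. *ITM2C* had r = -0.66 and *CADM1* -0.51 with *JCHAIN*, and *ELL2* had -0.21 with *MZB1*, -0.24 with *JCHAIN* and -0.32 with *XBP1*. From the BAFF and APRIL system, *TNFRSF13B* had r = 0.81 with *XBP1*, 0.71 with *DERL3*, 0.66 with *MZB1* and 0.14 with *JCHAIN*.

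Each of the 5 genes was also set against scores of 10 cell type marker lists, the score of a cow being the mean of centred log2 CPM over the markers. Of the 50 relations, 3 passed an adjusted permutation p of 0.05 by Pearson's r and 0 by Spearman's rho. *DERL3* correlated with the B cell score with r = 0.82 (permutation p = 0.00061, adjusted 0.0212; rho = 0.80, adjusted 0.0750). Without high cows 5 and 7, the most extreme cows of that score, r was 0.81 (permutation p = 0.00427), and it was 0.87 within the high and 0.83 within the low group. Of 11 B cell markers, 8 had r above 0.5 with *DERL3*, among them *CD79A*, a subunit of the B cell receptor, with 0.82. The same score had r = 0.39 with *XBP1* (0.85 within the high and 0.09 within the low group), 0.32 with *MZB1* and 0.03 with *JCHAIN* (adjusted permutation p = 0.556, 0.697 and 0.994; rho = 0.37, 0.10 and -0.02). Whether these values differ from that of *DERL3* was not tested. With the T cell score *XBP1* had r = 0.54 (adjusted permutation p = 0.368) and rho = 0.40 (adjusted permutation p = 0.565). Without low cows 11 and 13, the most extreme cows of the T cell score, r was 0.16. The other genes had r between -0.26 and 0.43 with the T cell score. Of 10 T cell markers, 5 had r above 0.5 with *XBP1*, beside 2 of the 11 B cell markers. With the plasmacytoid dendritic cell score, *DERL3* had r = 0.32 (adjusted permutation p = 0.697; rho = 0.55, adjusted 0.345). That r was 0.14 within the high and 0.74 within the low group. Without high cow 4 and low cow 11, the most extreme cows of that score, it was 0.85 (permutation p = 0.00095). The other genes had r between -0.25 and -0.14 with the plasmacytoid dendritic cell score (adjusted permutation p of at least 0.738). Without the same 2 cows their r lay between -0.26 and 0.22.

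*XBP1* and *MZB1* correlated with the proliferation score, and *DERL3* had r = 0.39 with it (adjusted permutation p = 0.556; rho = 0.22, adjusted 0.807). For *XBP1* r was 0.80 (permutation p = 0.00085, adjusted 0.0212; rho = 0.74, adjusted 0.0907), and without low cows 12 and 13 it was 0.68 (permutation p = 0.0246). For *MZB1* r was 0.79 (permutation p = 0.00179, adjusted 0.0298; rho = 0.66, adjusted 0.152), and without these cows it was 0.54 (permutation p = 0.0857), so this relation rested on them. Both relations missed the adjusted threshold without low cow 13 (adjusted permutation p = 0.107 for each), and that of *MZB1* also without low cow 8, 11 or 12 (0.0539 to 0.101). Of the 10 proliferation markers, which are genes of the cell cycle such as *MKI67*, 9 had r above 0.5 with *MZB1* and 9 with *XBP1*. *JCHAIN* had r = 0.57 with this score (permutation p = 0.0446, adjusted 0.319; rho = 0.62, adjusted 0.237). The monocyte score went against *XBP1* with r = -0.73 (adjusted permutation p = 0.0549) and rho = -0.77 (adjusted permutation p = 0.0750). Without high cow 7 and low cow 13, the most extreme cows of the monocyte score, r was -0.59 (permutation p = 0.0588). *DERL3* and *MZB1* had r = -0.66 and -0.64 with the monocyte score (adjusted permutation p = 0.140 and 0.149). For *JCHAIN* and *PRDM1* r was -0.25 and -0.08. No relation of *PRDM1* passed, the largest being r = -0.48 with the erythroid score (adjusted permutation p = 0.485; rho = -0.67, adjusted 0.152).

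**Figure D5:**
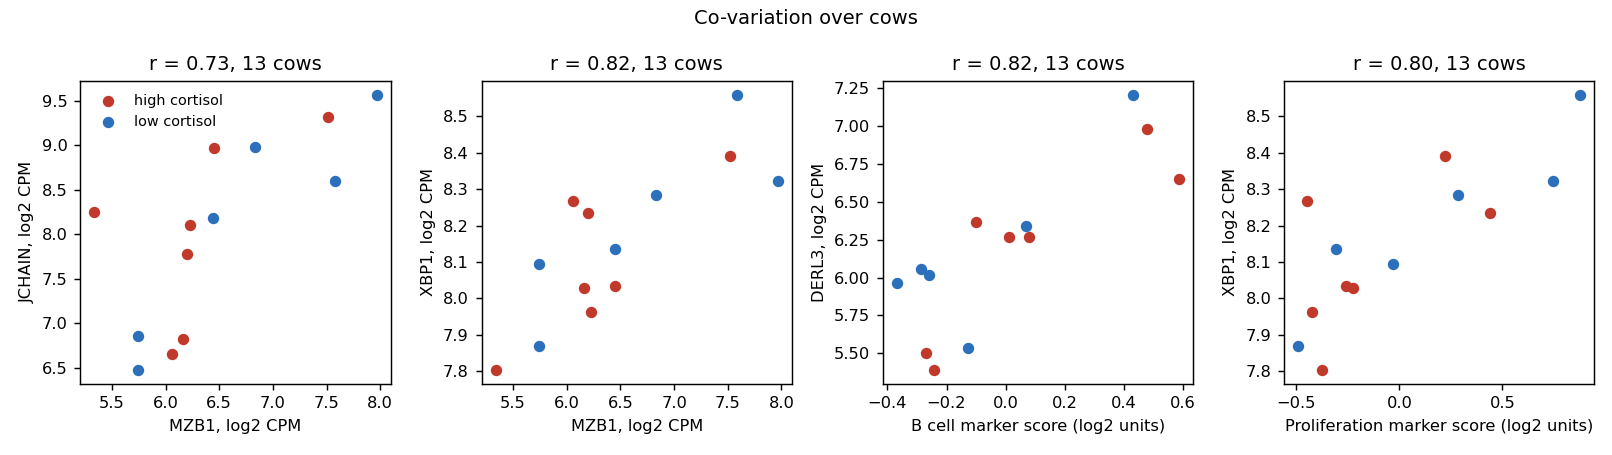
The pairs *MZB1* and *JCHAIN*, *MZB1* and *XBP1*, the B cell score and *DERL3*, and the proliferation score and *XBP1*, with 1 point per cow in log2 units (high cortisol in red, low cortisol in blue). Pearson r over the 13 cows lies between 0.73 and 0.82, and cows of both groups lie along each trend.

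Some markers of these cell types reached an unadjusted p below 0.05 between the groups (edgeR), as did 2.09% of all genes tested. In this paragraph, passing means this unadjusted limit. After adjustment 0 markers of each list were called, with an edgeR adjusted p of 0.998 or above. The part of these cell types in the differences above was not tested. All 10 proliferation markers had a negative log2 fold change (median -0.42), 2 of them (*MKI67* and *BUB1*) at an unadjusted p below 0.05 (edgeR), and their summed level was 295 to 514 CPM in the high and 309 to 702 CPM in the low group. For the 11 B cell markers, 9 were positive (median 0.13), 1 (*CR2*) at an unadjusted p below 0.05, with sums of 2126 to 4134 and 2128 to 3733 CPM. Of 6 erythroid markers tested, 6 were positive (median 1.94) and 4 passed (*ALAS2*, *HBB*, *HBG* and *HBM*), with sums of 382 to 8002 and 141 to 579 CPM. Of 6 neutrophil markers tested, 4 were negative (median -0.29) and 2 passed (*CSF3R* and *S100A9*, both lower in high cows), with sums of 4729 to 9405 and 7337 to 10037 CPM. Of the 8 monocyte markers, 0 passed (median 0.18, sums of 2949 to 7773 and 2532 to 7508 CPM). For T cell (10 markers), cytotoxic and NK cell (8), platelet (6) and plasmacytoid dendritic cell (7) markers, 0 passed and the medians were -0.07, 0.13, -0.22 and 0.14, and of 4 eosinophil markers 1 (*ADGRE1*, lower in high cows) passed, while the median was 0.38. Plasmacytoid dendritic cells also express genes of this set, but *IL3RA*, *TLR9*, *BCL11A* and *SPIB*, which mark them, had no entry in the counts.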

How the data were processed

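Whole blood RNA of 13 cows was analysed, 7 of the high and 6 of the low cortisol group, and the sample labels gave the groups. The authors deposited unnormalized counts, whole numbers of reads per gene name. Per the file headers these came from featureCounts v1.4.6-p3, summed over exons of Ensembl release 88 gene models (UMD3.1), and no strand, pairing or multiple-mapping option. The headers also hold a folder named for goat and animal numbers unlike those of the tables. The labels and methods name STAR 2.7.3, Subread 1.6.5 and ARS-UCD1.2 instead, and the conflict was not resolved. Positions are those of the headers. Reads on genes without a name (13.9% to 16.7% of counts) were left out. No 2 libraries were identical.

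The counts were scaled by TMM factors to CPM and, with a prior count of 2, to log2 CPM. Groups were compared with edgeR 4.0.16 in R 4.3.3 (robust quasi-likelihood fit, no covariates) over the 11033 genes that filterByExpr kept at a minimum count of 10 and a minimum total of 15, with Benjamini-Hochberg adjustment over all of them. A standard error is the fold change on the log2 scale over the root of F. Single genes were also tested over all 1716 splits of the cows, with a smallest possible p of 5.8e-04. Correlations have two-sided permutation p (100000 resamples). Limits at a count of 0 cover counting error only. The fit was tested on simulated data.

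Alternatives were DESeq2 1.42.0, limma-voom (limma 3.58.1), RLE factors, tests of all genes with at least 1 count, a non-robust fit, counts without the haemoglobin genes (*HBB*, *HBG*, *HBM*, *HBQ1*), their log2 share as covariate, a prior count of 0.5, centring within groups, Spearman's rho, and each cow left out. Those on marker scores were added after the data were seen. The genes and all lists were chosen with earlier results of these data known. Beside the members, the genes named are the 3 nearest to each member by r, the 2 with the highest CPM per kb and those with the smallest p in each direction of each pathway list, and names starting with IGH, IGK or IGL. Others were named after their values were seen or as markers of a cell type. No sequence is shown.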

Additional observations from a re-analysis of the deposited data

Results flagged for a closer look

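Dixon's test at the 95% level was applied to the top and the bottom cow of each group, for the 5 genes on the log2 scale. Of these 20 comparisons, 1 passed the limit, and 1 among 20 can arise by chance. *PRDM1* was 62.3 CPM in low cow 10, and the next low cow had 49.0 CPM. The gap was 0.677 of the range of the group, above the limit of 0.625 for 6 cows. Without this cow the log2 fold change of *PRDM1* was -0.17 (unadjusted p = 0.162 from edgeR's test).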

How the results depend on the processing

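An unadjusted p below 0.05 was reached by 1 of the 5 genes (*PRDM1*), by 0 when low counts were not filtered and by 0 under the haemoglobin covariate, and the count was 0 to 2 with 1 cow left out (2 without high cow 7). Over all genes, DESeq2 called 1 gene (*CYP4X1*, not one of the 5, with 348 at an unadjusted p below 0.05) and each other fit 0, with 120 at an unadjusted p below 0.05 under the haemoglobin covariate, 218 with limma-voom, 414 of 14377 without a filter and 191 to 373 with 1 cow left out. Of 100 alternative fold changes of the 5 genes, 92 kept their direction. The 8 that turned were small: *DERL3* was -0.25 with the haemoglobin covariate and -0.14 to 0.30 with 1 cow left out, and *JCHAIN* was -0.50 to 0.15 with 1 cow left out. Pairs passing the adjusted threshold were 2, and 1 to 2 with 1 cow left out. *MZB1* and *XBP1* passed in every alternative tried (r 0.77 to 0.87 with 1 cow left out), and *MZB1* and *JCHAIN* (r 0.66 to 0.85) missed it without high cow 7 or low cow 8, 10 or 12 (adjusted permutation p 0.0510 to 0.105).

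Correlations near 0 changed sign. *MZB1* and *PRDM1* had -0.10 after centring within groups, rho -0.0055, and -0.0398 to 0.32 with 1 cow left out. *JCHAIN* and *DERL3* had rho -0.0659 and -0.24 to 0.21 with 1 cow left out. *JCHAIN* and *PRDM1* had -0.0146 with RLE factors, -0.0323 after centring, and -0.38 to 0.30 with 1 cow left out. *XBP1* and *PRDM1* had rho 0.0495 and -0.16 to 0.10 with 1 cow left out, and *DERL3* and *PRDM1* -0.0710 to 0.36. Relations with marker scores passing the threshold were 3, but 0 by Spearman's rho, and 1 to 4 with 1 cow left out. Without low cow 13 1 was left, *DERL3* with the B cell score, which passed in each of the 13 cases (r 0.78 to 0.85). Of the pathway lists, limma-voom gave 2 plasma cell companions (*CD38* and *ELL2*) and DESeq2 1 gene of the B cell program (*EBF1*) below the same limit, and leaving out 1 cow each list gave at most 2. The causes were not tested. No paired analysis was possible because the groups are different cows and the labels give no pairs.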
